A study of Drosophila melanogaster with 18 samples.

Results

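Dl, Ephrin and dsh are 3 fruit fly genes for proteins by which cells signal to each other. They were picked by name from the deposited tables of counts at alternative poly(A) sites, and they are 3 of the 522 genes in those tables. The choice was made with earlier results of these data in view, so their site usage and totals below are a description of the members. For each comparison the text says whether a fit across all 525 gene entries with enough counts called the gene, at an adjusted p under 0.05 in edgeR's quasi-likelihood test, and gives the percent of all tested genes called the same way. A call of one of these genes is part of that description and not independent support, and no p value of theirs is printed. Nothing about the 3 genes is drawn from setting one beside the other, because the same contrasts helped to pick them.

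Testes of Drosophila melanogaster were profiled by 3′-end sequencing in 9 groups of 2 libraries, 18 in all, with 150 pairs of testes per library. Control flies carried the driver bamGal4 alone. All other flies carried the same driver and, in addition, an RNAi construct against 1 of 7 factors, namely su(f), CstF50, CstF64, PABP2, CPSF6, PCF11 and cbc. These groups are called PCF11_KD (a construct given as VDRC in the names of its deposited tables), PCF11_NIG_KD (a construct labelled NIG), cbc_KD (labelled BL 77426), CstF64_KD, CstF50_KD, suf_KD, CPSF6_KD and PABP2_KD. Parents were crossed at 25 °C for 3 days, their progeny developed at 29 °C until dissection, and the labels give no age of the males. The driver takes its promoter from bag of marbles, which is active in dividing germ cells before they become spermatocytes, so the somatic cells of these whole testes are not expected to carry the knockdown. Each knockdown group is 1 RNAi genotype, so the genetic background of a line and its knockdown cannot be told apart. All 8 knockdowns were compared with the same 2 control libraries, so their comparisons are not independent of each other. The sample numbers in the names of the count columns repeat between groups. Control shares them with PABP2_KD, CPSF6_KD with PCF11_KD, CstF50_KD with suf_KD, and CstF64_KD with PCF11_NIG_KD. No sequencing run is named, so any difference of run between groups cannot be told apart from the knockdown.

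Cleavage and polyadenylation end a messenger RNA, and a gene with several poly(A) sites can make transcripts with short or long 3′ untranslated regions (UTRs). CstF64, CstF50 and su(f) form the cleavage stimulation factor, which binds the nascent RNA downstream of the cut. PCF11 and cbc, the homolog of Clp1, belong to cleavage factor II. CPSF6 is a subunit of cleavage factor I, and PABP2 coats new poly(A) tails in the nucleus. Dl is Delta, a membrane ligand that activates the receptor Notch on the neighbouring cell, and in the male gonad Notch signalling takes part in forming the hub, the niche of the germline stem cells. Ephrin is the membrane ligand of the Eph receptor tyrosine kinase and is known for contact-dependent guidance of axons. dsh is Dishevelled, a cytoplasmic scaffold that relays signals from the Wnt receptor Frizzled to the β-catenin branch and to planar cell polarity.

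The libraries held 342763 to 819286 counts over all genes in the tables. Duplicates differed by more than sampling noise in every group, with a chi-square per degree of freedom of 92.2 between the PABP2_KD libraries and 4.52 to 25.3 in the other groups. None of the factors knocked down was among the genes measured (0 genes), so the depth of each knockdown could not be read from these counts. Of the markers listed for testis cell types, 2 of 5 for cyst cells, 1 of 6 for spermatogonia, 1 of 10 for spermatocytes and 3 of 11 for spermatids were in the tables, and none for the hub or the sheath. The spermatid transcripts m-cup, nes and r-cup were detected in every library, at summed levels of 8263 to 14334 CPM (counts scaled to a common, normalised library size).

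The sites of the 3 genes lie within annotated 3′ UTRs of the build BDGP6 (dm6). Dl (FBgn0000463, annotated as Delta) is on the minus strand of chromosome arm 3R at 19302731 to 19326217. Its proximal site at 19304752 lies 76 nt past the stop codon and its distal site at 19304328 lies 500 nt past it. The most distal of 3 sites, at 19303957 and 871 nt past the stop codon, took 47 counts over all libraries, against 876 counts for the proximal and 1586 for the distal site. The annotated transcripts of Dl end 365, 1400 and 2097 nt past the stop codon, and none of the counted sites lies closer than 135 nt to one of these ends.

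Ephrin (FBgn0040324) is on the plus strand of chromosome 4 at 571755 to 580122. Its proximal site at 577396 and distal site at 577550 lie 74 and 228 nt past the stop codon. The authors' block at the proximal site is 33 nt long and joins 2 listed positions, 577393 and 577396. Both counted sites are upstream of the annotated ends, which lie 821 and 2800 nt past the stop codon. dsh (FBgn0000499) is on the plus strand of chromosome X at 11355881 to 11358724. Its proximal site at 11358285 lies 60 nt past the stop codon, and its distal site at 11358723 lies 498 nt past it, 1 nt from the annotated end of the gene's only transcript. The sites were 424 nt apart in Dl, 154 nt in Ephrin and 438 nt in dsh, while the median over all 529 gene entries was 415 nt. Reads were counted without regard to strand, and 0 other annotated genes overlapped any of these counting blocks.

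**Figure D1:**
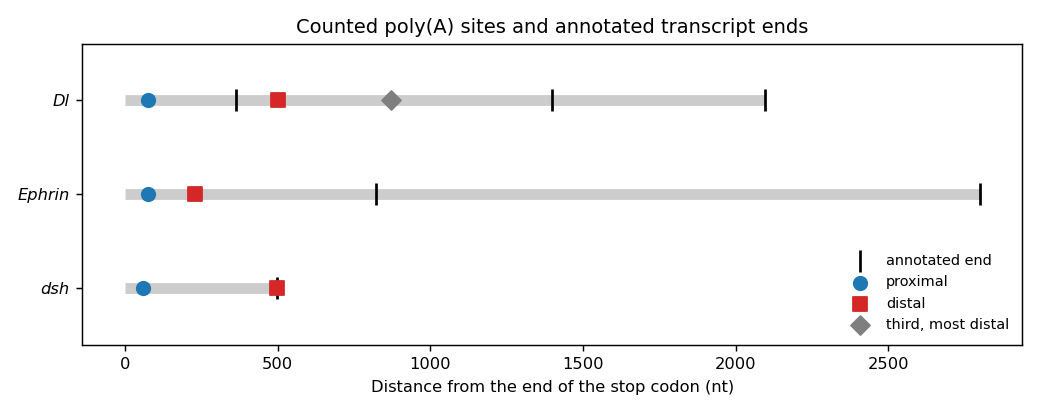
Position of the counted poly(A) sites and of the annotated transcript ends of the 3 genes, in nt from the end of the stop codon (horizontal axis). The proximal sites lie 60 to 76 nt past the stop codon in all 3 genes, and the distal sites 228 to 500 nt.

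Dl had most of its reads at the proximal site in control testes, and in every knockdown most or about equal numbers lay at the distal site. The proximal share, which is the proximal count as a percent of the sum of both sites, was 78.6% ± 0.244 (SD, n = 2) in control. Control replicates 1 and 2 had 74 and 58 counts at the proximal site and 20 and 16 at the distal site. Both libraries of all 8 knockdowns had lower shares than both controls. The same held for 71.2% of all genes tested in cbc_KD, 58.3% in PCF11_KD and 53.5% in PCF11_NIG_KD. It was least frequent with CstF50_KD (19.0% of genes), CPSF6_KD (25.1%) and CstF64_KD (34.7%), while suf_KD had 44.4% and PABP2_KD 45.0%. The fit called a move of Dl toward the distal site in 8 of 8 knockdowns. Genes called toward the distal site made up 60.6% of those tested in cbc_KD, 43.8% in PCF11_KD and 33.9% in PCF11_NIG_KD. The corresponding percent was 37.3% in PABP2_KD and 14.7% in CPSF6_KD, and over the cleavage stimulation factor it was 26.1% in suf_KD, 17.7% in CstF64_KD and 6.86% in CstF50_KD.

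The lowest proximal shares of Dl were measured in PCF11_NIG_KD and CPSF6_KD. PCF11_NIG_KD had 7 and 1 proximal counts against 65 and 72 distal counts in its replicates, a share of 5.55% ± 5.91. The log2 odds, proximal over distal, fell by 5.92 ± 0.57 (SE) there, a change that ranked 3 of 525 from the lowest. The size of that change rests on few proximal reads, and it was -7.81 without PCF11_NIG_KD replicate 1 and -5.05 without replicate 2. In CPSF6_KD there were 3 and 9 proximal against 63 and 72 distal counts, a share of 7.83% ± 4.64. The log2 odds fell by 5.37 ± 0.55, rank 2 of 525 from the lowest, and the value was -4.85 without CPSF6_KD replicate 1 and -6.22 without replicate 2. The libraries of these knockdowns overlapped each other in share.

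A second set of knockdowns brought Dl to a share of 17.6% to 18.4%, and their libraries overlapped too. The cbc_KD libraries had 13 and 15 proximal against 63 and 68 distal counts, or 17.6% ± 0.684, and the log2 odds fell by 4.09 ± 0.50. In CstF50_KD the counts were 17 and 9 proximal against 62 and 51 distal, a share of 18.3% ± 4.61. The change there was -4.0 ± 0.51, rank 3 of 525 from the lowest, in a knockdown in which the median over all genes lay 0.75 above 0. PABP2_KD gave 21 and 28 proximal against 105 and 111 distal counts, a share of 18.4% ± 2.46 and a change in log2 odds of -4.01 ± 0.48.

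In the remaining 3 knockdowns Dl kept a share of 40.1% to 49.1%, below control but above the 5 knockdowns just named. In CstF64_KD, where Dl had its most reads, 228 and 126 proximal counts stood against 333 and 193 distal ones, or 40.1% ± 0.808. In PCF11_KD 31 and 32 proximal counts stood against 50 and 30, or 44.9% ± 9.43, and its replicate 2 lay above 50% at 51.6%. The suf_KD libraries had 109 and 95 proximal and 115 and 97 distal counts, or 49.1% ± 0.579. The changes in log2 odds were -2.45 ± 0.44, -2.18 ± 0.49 and -1.92 ± 0.45 in that order. Neighbours in this group of knockdowns overlapped in share, CstF64_KD with PCF11_KD and PCF11_KD with suf_KD.

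The most distal site of Dl, 871 nt past the stop codon, had 16 and 6 counts in the suf_KD libraries, 4.85% ± 2.57 of the gene's counts, and 0 and 2 counts in the controls. It had 0 counts in both PCF11_NIG_KD and both CPSF6_KD libraries, which allows a share of up to 2.07% and 2.04%. In the other knockdowns a library had 0 to 6 counts there, so differences at this site were not detectable at this depth. Over both main sites, 95% Wilson intervals for the share of Dl in single libraries were 7.12 to 24.1 points wide. Such intervals and limits cover counting error only.

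For Ephrin all usage calls against control were toward the proximal site. In control testes 53 and 65 counts fell at the proximal site and 102 and 76 at the distal site, a proximal share of 40.1% ± 8.42, with 34.2% in replicate 1 and 46.1% in replicate 2. The fit called a move toward the proximal site in 5 of 8 knockdowns, PCF11_NIG_KD, cbc_KD, CstF50_KD, CPSF6_KD and PABP2_KD. The percent of all tested genes called toward the proximal site was 12.4% in PCF11_NIG_KD, 6.67% in cbc_KD, 33.9% in CstF50_KD, 24.2% in CPSF6_KD and 21.7% in PABP2_KD.

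In these 5 knockdowns the share of Ephrin was 82.8% or more, and no library of theirs was below 79.4%. PABP2_KD was highest, with 340 and 210 proximal against 36 and 23 distal counts, a share of 90.3% ± 0.210. The log2 odds rose by 3.79 ± 0.32. PCF11_NIG_KD had 114 and 112 against 13 and 14 counts, or 89.3% ± 0.619, and a rise of 3.63 ± 0.35. The share was 86.0% in both cbc_KD (± 2.58) and CPSF6_KD (± 2.73), whose libraries overlapped. The cbc_KD libraries had 191 and 223 proximal and 36 and 31 distal counts, and those of CPSF6_KD 131 and 174 proximal and 18 and 33 distal counts. The rise in cbc_KD, 3.21 ± 0.32, ranked 5 of 525 from the highest in a knockdown where the median change over all genes was -1.76. In CPSF6_KD the rise was 3.19 ± 0.33. CstF50_KD had 85 and 93 against 22 and 15 counts, 82.8% ± 4.72, with a rise of 2.85 ± 0.34.

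The other 3 knockdowns were not called for Ephrin, where 9.52% of all genes were called toward the proximal site in PCF11_KD, 21.1% in CstF64_KD and 11.6% in suf_KD. CstF64_KD libraries had 71 and 48 proximal and 64 and 43 distal counts, a share of 52.7% ± 0.109, and PCF11_KD libraries had 85 and 70 against 93 and 77, or 47.7% ± 0.0946. Both libraries of each lay above both controls. The proximal share of a gene lay above both controls in 40.2% of all genes tested in CstF64_KD and in 20.4% in PCF11_KD. The changes in log2 odds were 0.74 ± 0.32 and 0.45 ± 0.31. Without control replicate 2 the CstF64_KD change was 1.10 and was called. The suf_KD libraries, with 75 and 69 proximal and 90 and 104 distal counts, overlapped the controls at 42.7% ± 3.94, and the change was 0.16 ± 0.31.

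**Figure D2:**
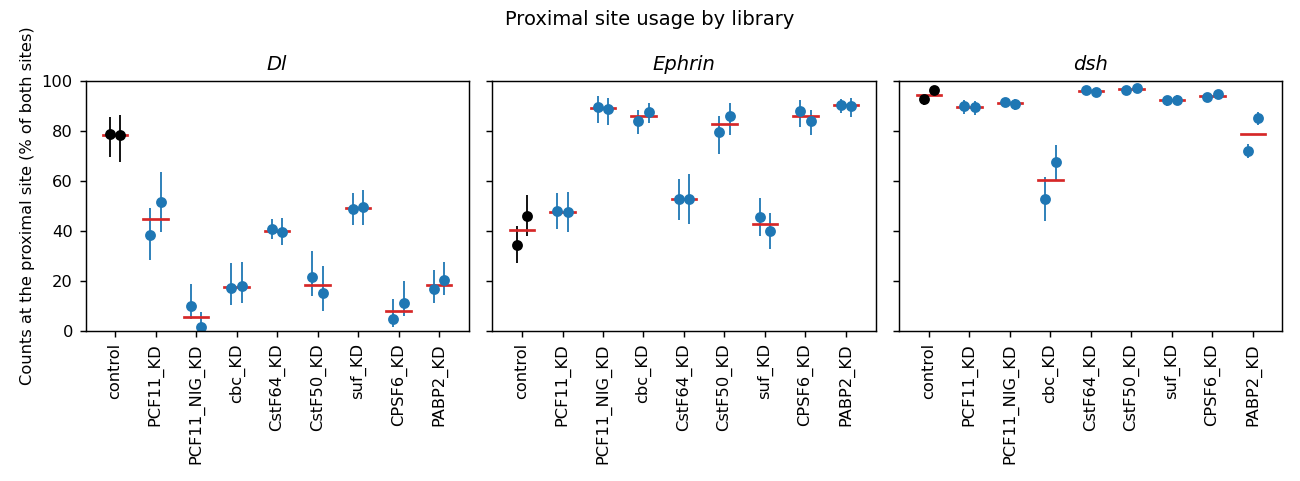
Proximal share of Dl, Ephrin and dsh in each library (vertical axis, percent of the counts of both sites), with 95% Wilson intervals as bars on each point, controls in black, and a red line at the mean of each group of 2 libraries. Dl lies below both controls in all 8 knockdowns, Ephrin reaches 82.8% to 90.3% in 5 of them, and dsh leaves the range of 89.7% to 96.8% in cbc_KD and PABP2_KD.

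dsh, which had the most counts of the 3 genes, was used almost wholly at its proximal site in control, with 697 and 845 proximal and 55 and 31 distal counts and a share of 94.6% ± 2.67. The fit called a move toward the distal site in 2 of 8 knockdowns, cbc_KD and PABP2_KD, in which 60.6% and 37.3% of all genes tested were called in that direction. In cbc_KD 63 and 104 proximal counts stood against 56 and 50 distal ones, a share of 60.2% ± 10.3, and the log2 odds fell by 3.56 ± 0.44. In PABP2_KD 669 and 601 proximal counts stood against 259 and 104 distal ones, 78.7% ± 9.30, and the log2 odds fell by 2.25 ± 0.41. The PABP2_KD replicates stood well apart, at 72.1% and 85.2%, and the change was -1.64 without replicate 1 and -2.80 without replicate 2. The controls mattered as much for dsh, since they differed in distal counts. The change in cbc_KD was -4.14 without control replicate 1 and -3.04 without control replicate 2, and in PABP2_KD it was -2.84 and -1.73.

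In the other knockdowns dsh had shares of 89.7% to 96.8%. Below both controls lay PCF11_KD at 89.7% ± 0.229, with 382 and 446 proximal and 43 and 52 distal counts, PCF11_NIG_KD at 91.3% ± 0.693, with 916 and 622 against 82 and 63, and suf_KD at 92.5% ± 0.122, with 596 and 611 against 49 and 49. The share lay below both controls in 58.3%, 53.5% and 44.4% of all genes tested in these comparisons. None of the 3 was called, with changes in log2 odds of -1.06 ± 0.43, -0.79 ± 0.42 and -0.56 ± 0.43. The first 2 of them passed the threshold without control replicate 1, at -1.64 and -1.37. For PCF11_KD the call also appeared without either cbc_KD library (-1.06) and without either PABP2_KD library (-1.05). CPSF6_KD (94.1% ± 0.914), CstF64_KD (96.0% ± 0.433) and CstF50_KD (96.8% ± 0.554) overlapped the controls. Their proximal counts were 671 and 992, 775 and 507, and 911 and 967, and their distal counts 47 and 55, 30 and 23, and 34 and 28.

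The level of each site, in CPM, shows which site changed in amount. These levels were not tested, and a library's position against both controls is given as a description. At the distal site of Dl both libraries of all 8 knockdowns lay above both controls, which had 56.0 and 48.9 CPM. The mean distal level was 1.52-fold of control in PCF11_KD, 1.80-fold in PCF11_NIG_KD, 2.27-fold in CstF50_KD, 2.33-fold in cbc_KD, 2.95-fold in PABP2_KD, 3.51-fold in CPSF6_KD and 3.76-fold in suf_KD. In CstF64_KD it was 10.7-fold, at 607 and 515 CPM. Distal sites above both controls made up 65.0% of all genes tested in cbc_KD, 53.9% in PCF11_KD, 49.3% in PCF11_NIG_KD, 45.0% in suf_KD, 42.3% in PABP2_KD, 36.2% in CstF64_KD, 24.4% in CPSF6_KD and 19.2% in CstF50_KD.

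At the proximal site Dl was not uniform. Control libraries had 207 and 177 CPM, and 6 knockdowns lay below both, from 64.2 CPM ± 9.11 in PCF11_KD down to 5.17 ± 5.21 in PCF11_NIG_KD. The percent of all genes whose proximal site lay below both controls was 59.2% in cbc_KD, 51.4% in PCF11_KD, 48.6% in PCF11_NIG_KD, 42.3% in PABP2_KD, 30.3% in CPSF6_KD and 22.7% in CstF50_KD. The suf_KD libraries, at 197 and 183 CPM, overlapped the controls, so in that knockdown the lower share came with more distal and a like amount of proximal reads. CstF64_KD, at 416 and 336 CPM, lay above both controls also at the proximal site, as did 40.6% of all genes.

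The distal site of Ephrin lay below both controls, 286 and 232 CPM, in all 8 knockdowns. The lowest level was in PCF11_NIG_KD, at 16.4 and 20.8 CPM or 13.9-fold below the control mean. It was followed by CstF50_KD (6.67-fold below), PABP2_KD (6.42-fold), cbc_KD (4.12-fold) and CPSF6_KD (3.80-fold), and then by CstF64_KD (2.24-fold), PCF11_KD (1.51-fold) and suf_KD (1.43-fold). Distal sites below both controls made up 56.0% of all genes in CstF50_KD, 45.9% in CPSF6_KD, 42.7% in CstF64_KD, 35.0% in PABP2_KD, 32.4% in suf_KD, 30.9% in PCF11_NIG_KD, 25.3% in PCF11_KD and 15.2% in cbc_KD. The proximal site, at 148 and 198 CPM in control, lay above both controls in cbc_KD (387 CPM ± 28.5), CPSF6_KD (413 ± 33.3) and PABP2_KD (374 ± 23.8), where 23.0%, 39.4% and 30.3% of all genes did so. In PCF11_NIG_KD (155 CPM ± 15.7) and CstF50_KD (189 ± 22.8) it overlapped the controls, so a share of over 80% was reached there with fewer distal and a like amount of proximal reads. The proximal level also overlapped the controls in PCF11_KD (156 CPM ± 2.72), and it lay below both in CstF64_KD (129 ± 1.02) and suf_KD (134 ± 1.72), as in 36.4% and 41.3% of all genes.

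For dsh the lower level in cbc_KD was at the proximal site. It had 1952 and 2580 CPM there in control and 121 and 190 CPM in cbc_KD, 14.6-fold below the control mean, and 59.2% of all genes had a proximal site below both controls there. Its distal site had 154 and 94.7 CPM in control and 107 and 91.2 CPM in cbc_KD, which overlapped. In PABP2_KD the proximal level was 770 and 1024 CPM, 2.53-fold below control, and the distal level was above both controls, at 298 and 177 CPM, as in 42.3% of all genes. In PCF11_KD (848 CPM ± 193), PCF11_NIG_KD (1041 ± 165), suf_KD (1126 ± 71.7) and CstF64_KD (1382 ± 43.0) the proximal site also lay below both controls, as in 51.4%, 48.6%, 41.3% and 36.4% of all genes. The distal site lay below both controls in CstF64_KD (58.0 CPM ± 4.70), CstF50_KD (65.3 ± 5.18) and suf_KD (91.4 ± 4.22), as in 42.7%, 56.0% and 32.4% of all genes. In CPSF6_KD both sites of dsh overlapped the controls.

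**Figure D3:**
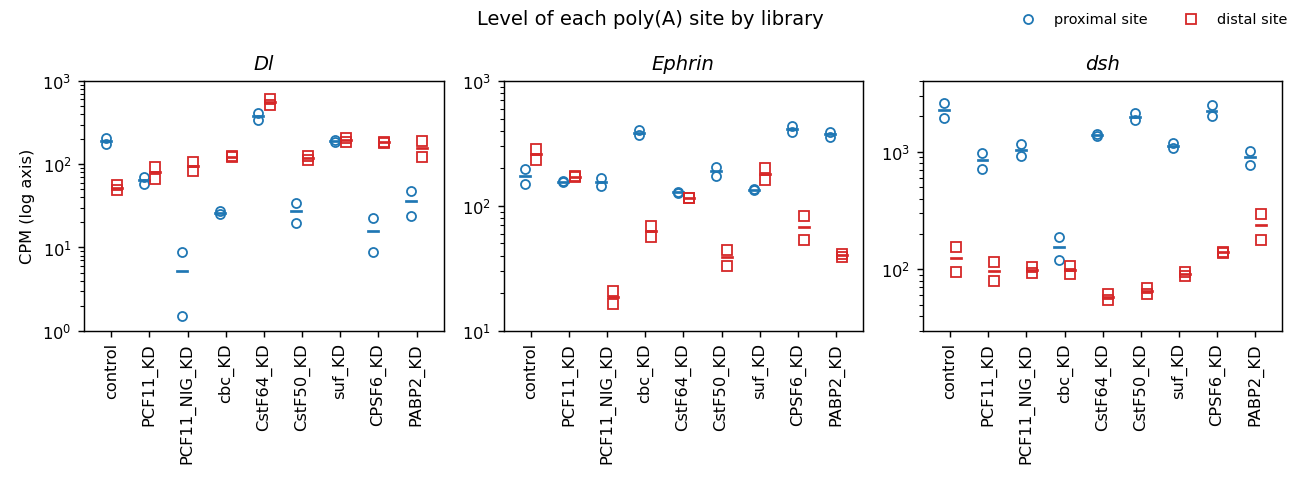
Level of the proximal (blue circles) and distal (red squares) site of Dl, Ephrin and dsh in each library, in CPM on a log axis with a range of its own for each gene, and short lines at the means of 2 libraries. The distal site of Dl is above both controls in all 8 knockdowns, that of Ephrin is below both in all 8, and the proximal site of dsh is 14.6-fold below control in cbc_KD.

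Total counts per gene were fitted apart from site usage. In bulk testes, fewer cells of a type and less RNA per cell cannot be told apart, and totals here are relative to the other genes on the authors' site list. Dl rose in 2 of 8 knockdowns and fell in 4. In CstF64_KD, with 1033 and 853 CPM against 263 and 232 in control, the log2 total rose by 1.93 ± 0.21, rank 9 of 525 from the highest. In suf_KD, with 433 and 381 CPM, it rose by 0.72 ± 0.21. Higher totals were called in 24.0% and 25.3% of all genes in these comparisons. The log2 changes of the falls were -1.31 ± 0.22 in PCF11_NIG_KD, -0.75 ± 0.22 in CstF50_KD, -0.72 ± 0.22 in PCF11_KD and -0.67 ± 0.22 in cbc_KD, where 22.9%, 17.5%, 21.9% and 30.1% of all genes were called lower.

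The smaller changes in Dl totals were not called in some fits that left out 1 library. In PCF11_KD the call was lost without control replicate 1 (-0.62), PCF11_KD replicate 1 (-0.74) or PCF11_KD replicate 2 (-0.64). In cbc_KD it was lost without control replicate 1 (-0.58) or either cbc_KD library (-0.67), and with library totals in place of TMM factors (-0.34). The CstF50_KD call was lost without control replicate 1 (-0.65), control replicate 2 (-0.78) or CstF50_KD replicate 2 (-0.60), and the suf_KD call without control replicate 2 (0.69) or suf_KD replicate 1 (0.62). The totals of Dl in CPSF6_KD and PABP2_KD were not called, with log2 changes of -0.31 ± 0.22 and -0.38 ± 0.22. The PABP2_KD libraries had 147 and 237 CPM, and without replicate 2 the change was -0.75 and was called.

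The total of Ephrin fell in 5 of 8 knockdowns. In control it had 434 and 431 CPM. The log2 change was -1.31 ± 0.15 in PCF11_NIG_KD (161 and 187 CPM), -0.93 ± 0.15 in CstF50_KD (217 and 238 CPM) and -0.82 ± 0.15 in CstF64_KD (246 and 243 CPM). Changes of -0.45 ± 0.15 in suf_KD and -0.40 ± 0.15 in PCF11_KD were less firm. The suf_KD call was lost without either control or without suf_KD replicate 1 (-0.38 to -0.45), in DESeq2 (-0.49) and with library totals (-0.34). The PCF11_KD call was lost in 13 of the 18 fits that left out 1 library (-0.32 to -0.41), in DESeq2 (-0.45) and with library totals (-0.37). Totals were called lower in 22.9% of all genes in PCF11_NIG_KD, 17.5% in CstF50_KD, 23.6% in CstF64_KD, 25.0% in suf_KD and 21.9% in PCF11_KD. In cbc_KD, CPSF6_KD and PABP2_KD, the knockdowns with more proximal Ephrin reads than control, the log2 changes in total were 0.06 ± 0.15, 0.16 ± 0.15 and -0.06 ± 0.15, and none was called.

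The total of dsh fell in 6 of 8 knockdowns, with the deepest fall in cbc_KD. Control libraries had 2106 and 2675 CPM and cbc_KD libraries 228 and 281 CPM, a log2 change of -3.23 ± 0.21, rank 7 of 525 from the lowest. The change was -1.34 ± 0.19 in PCF11_KD and -1.07 ± 0.18 in PCF11_NIG_KD, -1.08 ± 0.18 in PABP2_KD, -0.97 ± 0.19 in suf_KD and -0.73 ± 0.18 in CstF64_KD. Lower totals were called in 30.1% of all genes in cbc_KD, 21.9% in PCF11_KD, 22.9% in PCF11_NIG_KD, 29.5% in PABP2_KD, 25.0% in suf_KD and 23.6% in CstF64_KD. The CstF64_KD call was lost without control replicate 2, where the change was -0.49. In CstF50_KD and CPSF6_KD the changes were -0.22 ± 0.18 and 0.00 ± 0.18, and were not called.

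Transcripts listed as markers of testis cell types also changed in these libraries. Rbp9, an RNA-binding protein of late spermatogonia and early spermatocytes, was the only one of 6 spermatogonial markers measured. It fell in all 8 knockdowns, with log2 changes of -1.43 ± 0.21 in CstF50_KD to -3.32 ± 0.24 in CPSF6_KD, from 1460 and 1596 CPM in control to a range of 131 to 651 CPM. Over the 8 knockdowns, lower totals were called in 17.0% to 30.1% of all genes and higher ones in 18.1% to 32.6%. zfh1, a transcription factor of cyst stem cells and early cyst cells, fell in all 8, with log2 changes of -1.15 ± 0.23 in CstF50_KD to -2.39 ± 0.24 in PABP2_KD. chinmo, the other cyst cell marker measured and also expressed in early germ cells, was higher in 5 knockdowns, most in cbc_KD at 1.56 ± 0.15. The summed level of both was 1582 to 1918 CPM in the controls and 3711 to 4122 CPM in cbc_KD, and in the other knockdowns its range was 1374 to 2573 CPM. simj was the only gene measured of 10 listed for spermatocytes, and these data do not show that it is specific to them. It rose in CstF64_KD (1.34 ± 0.21) and suf_KD (1.47 ± 0.21), the knockdowns in which Dl totals rose. It also rose by 0.73 ± 0.21 in both PCF11_KD and cbc_KD, in which Dl totals fell. The summed level of the 3 spermatid transcripts was 9552 to 10520 CPM in control, 13127 to 13866 in CstF64_KD, 12712 to 13319 in suf_KD and 8629 to 8833 in cbc_KD. It was highest in CPSF6_KD, at 13405 to 14334 CPM, and lowest in PABP2_KD, at 8263 to 8544 CPM, and the Dl total was called in neither of these. In PCF11_KD, PCF11_NIG_KD and CstF50_KD the libraries ranged from 9130 to 11834 CPM. Of the 3 transcripts, r-cup rose in CstF64_KD (0.96 ± 0.17) and suf_KD (0.97 ± 0.17). It also rose in PCF11_KD (0.68 ± 0.17), where the Dl total fell. In CstF64_KD and suf_KD the changes of m-cup were 0.09 ± 0.14 and -0.23 ± 0.14. Those of nes were -0.26 ± 0.15 and 0.14 ± 0.15, and none of these was called. The sums also hide opposite changes in PCF11_KD, PABP2_KD and cbc_KD. In PCF11_KD m-cup fell (-0.65 ± 0.14) while r-cup rose, and m-cup also fell in PCF11_NIG_KD (-0.44 ± 0.14). In PABP2_KD m-cup fell (-1.06 ± 0.15) and nes rose (0.50 ± 0.15). In cbc_KD m-cup fell (-0.67 ± 0.14) and nes rose (0.62 ± 0.15), and r-cup was called in neither PABP2_KD nor cbc_KD. In CPSF6_KD only m-cup was called, with a rise of 0.64 ± 0.14. The part of these cell type markers in the usage and totals of the 3 genes was not tested.

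**Figure D4:**
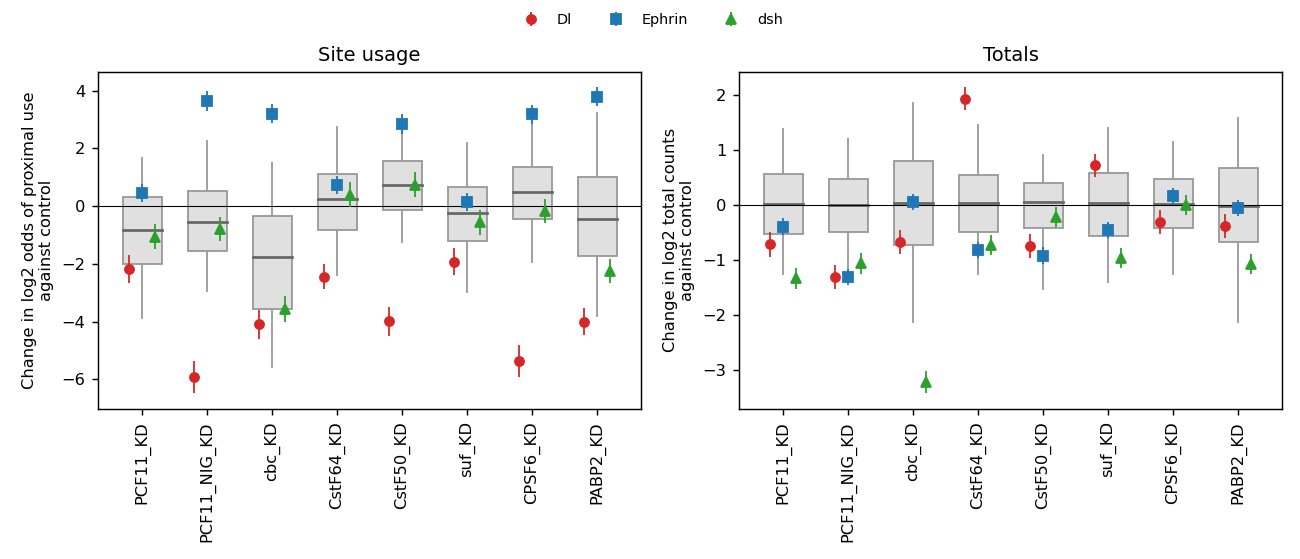
Changes against control of Dl (circles), Ephrin (squares) and dsh (triangles) with SE bars, for the log2 odds of proximal use (left) and the log2 total (right), beside the quartiles (box), median (line) and 0.05 to 0.95 quantiles (whisker) of all 525 genes tested. Dl lies below the whisker for usage in PCF11_NIG_KD, CstF64_KD, CstF50_KD, CPSF6_KD and PABP2_KD, and Ephrin lies above it in PCF11_NIG_KD, cbc_KD, CPSF6_KD and PABP2_KD. For totals, dsh lies below it in PCF11_KD and cbc_KD and Dl above it in CstF64_KD.

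The 2 groups with a knockdown of PCF11 were compared with each other directly, so the difference itself does not draw on the controls. Its SE and call do in part, because the spread was estimated over all 18 libraries. The genes were chosen with these groups in view, so the values describe them. In PCF11_NIG_KD against PCF11_KD the log2 odds of Dl differed by -3.74 ± 0.58, rank 3 of 525 from the lowest, and those of Ephrin by 3.18 ± 0.34, both called. Of all genes tested, 3.43% were called toward the distal site and 19.2% toward the proximal site in this contrast. For dsh the difference was 0.27 ± 0.42 and was not called. The value of Dl was -5.63 without PCF11_NIG_KD replicate 1 and -2.86 without replicate 2.

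cbc was compared with both knockdowns of its partner PCF11. Against PCF11_KD, cbc_KD had lower log2 odds of proximal use for Dl (-1.90 ± 0.50) and dsh (-2.50 ± 0.44) and higher ones for Ephrin (2.75 ± 0.32), all called, and the last ranked 2 of 525 from the highest. In this contrast 45.3% of genes were called toward the distal and 5.52% toward the proximal site. The Dl difference was -1.53 and not called without PCF11_KD replicate 2. Against PCF11_NIG_KD, dsh differed in cbc_KD by -2.77 ± 0.43 and was called, Ephrin differed by -0.43 ± 0.35 and was not called, and Dl was higher by 1.84 ± 0.62. Calls toward the distal and the proximal site were made for 56.2% and 4.38% of genes there. The Dl call was lost without PCF11_NIG_KD replicate 2, at 0.96, and without either cbc_KD library, at 1.88 and 1.78.

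The 3 subunits of the cleavage stimulation factor were set against each other in the same way. CstF50_KD against CstF64_KD had lower log2 odds for Dl (-1.55 ± 0.46) and higher ones for Ephrin (2.11 ± 0.34), both called, in a contrast with 4.19% of genes called toward the distal and 28.8% toward the proximal site. The Dl call was lost without any 1 of the 4 libraries, with values of -1.28 to -1.91. In suf_KD against CstF50_KD the directions were the other way round, with 2.08 ± 0.47 for Dl and -2.69 ± 0.34 for Ephrin, and -1.30 ± 0.44 for dsh. These were called, where 45.5% of genes were called toward the distal and 3.05% toward the proximal site, but the dsh call was lost without any 1 of the 4 libraries (-1.12 to -1.49). Between suf_KD and CstF64_KD, where 5.71% of genes were called toward the distal site, none of the 3 genes was called, with differences of 0.53 ± 0.39 for Dl, -0.58 ± 0.32 for Ephrin and -0.96 ± 0.44 for dsh.

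Few other genes of the same pathways were in the tables. Of 63 listed genes of the Notch pathway 4 were measured besides Dl: neur, lqf, Nedd4 and numb. Neur is the ubiquitin ligase that drives endocytosis of Delta, lqf encodes epsin, which acts with it in the signalling cell, Nedd4 is a ubiquitin ligase of Notch, and Numb is an inhibitor of Notch. The proximal share of neur was 63.6% ± 4.34 in control and moved toward the distal site in cbc_KD (22.0% ± 7.75), CPSF6_KD (37.8% ± 8.26) and PABP2_KD (39.9% ± 5.22). These are comparisons in which 60.6%, 14.7% and 37.3% of all genes were called in that direction. In lqf the usage moved toward the distal site in PCF11_KD and cbc_KD, where the share was 89.2% ± 0.931 and 73.3% ± 4.44 against 93.3% ± 2.03 in control. It moved toward the proximal site in PCF11_NIG_KD, CstF50_KD, CPSF6_KD and PABP2_KD, to shares of 97.3% to 99.3%.

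Over the 4 Notch pathway genes, calls toward the distal site numbered 3 in cbc_KD, where 60.6% of all genes were so called, and 1 each in PCF11_KD (43.8% of all genes), CPSF6_KD (14.7%) and PABP2_KD (37.3%). Calls toward the proximal site numbered 3 in CstF50_KD (33.9% of all genes) and CPSF6_KD (24.2%), 2 in PABP2_KD (21.7%) and 1 each in PCF11_NIG_KD (12.4%), cbc_KD (6.67%) and CstF64_KD (21.1%). Their median change in log2 odds was -2.49 in cbc_KD, beside -1.76 over all genes, and 2.21 in CPSF6_KD, beside 0.48. Totals of lqf fell in 6 knockdowns, with log2 changes of -3.07 ± 0.19 in cbc_KD and -0.86 to -1.53 in PCF11_KD, PCF11_NIG_KD, CstF64_KD, suf_KD and PABP2_KD, and totals of neur rose in cbc_KD (0.97 ± 0.23) and PABP2_KD (0.88 ± 0.23). Lower totals were called in 21.9% to 30.1% of all genes in those 6 knockdowns, and higher ones in 32.6% in both cbc_KD and PABP2_KD. Nedd4 totals were called lower in cbc_KD (-1.77 ± 0.16), PCF11_KD (-0.90 ± 0.15), PCF11_NIG_KD (-0.85 ± 0.15), PABP2_KD (-0.51 ± 0.15) and suf_KD (-0.48 ± 0.15). Those of numb were called higher in CstF50_KD (1.05 ± 0.16), CPSF6_KD (0.79 ± 0.16), PABP2_KD (0.64 ± 0.16) and suf_KD (0.58 ± 0.16), and lower in cbc_KD (-0.57 ± 0.16). Between 18.1% and 32.6% of all genes were called higher where numb rose.

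Of 15 listed genes of Eph and ephrin signalling, dock and Src42A were measured besides Ephrin. Dock is an adaptor protein of the Nck family that acts in axon guidance, and Src42A is a Src family kinase. The share of dock was 89.9% ± 5.05 in control and moved toward the distal site in 6 knockdowns, to 17.3% ± 6.50 in PABP2_KD, 32.0% ± 5.59 in cbc_KD, 42.8% ± 2.71 in PCF11_KD, 58.1% ± 7.44 in PCF11_NIG_KD, 76.6% ± 3.43 in CPSF6_KD and 76.8% ± 6.48 in suf_KD. Between 14.7% and 60.6% of all genes were called in that direction in these comparisons. Src42A had 19.3 counts per library on average and moved toward the proximal site in PCF11_NIG_KD, CstF50_KD, suf_KD, CPSF6_KD and PABP2_KD, from 18.2% ± 12.9 in control to 81.8% ± 25.7, 78.1% ± 4.42, 46.8% ± 17.2, 63.1% ± 28.6 and 62.7% ± 0.327. Its replicates were far apart in several groups, and 11.6% to 33.9% of all genes were called toward the proximal site in these 5 comparisons.

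Of 80 listed genes of Wnt, Frizzled and planar polarity signalling, app, dco, pan and slmb were measured besides dsh. Pan is the transcription factor TCF, dco a casein kinase 1, slmb an F-box protein that targets Armadillo for degradation, and app a palmitoyltransferase of the Fat planar polarity pathway. In cbc_KD, where 60.6% of all genes were called toward the distal site, 3 of the 4 moved that way, app from 85.2% ± 1.08 to 12.4% ± 4.70, dco from 66.0% ± 0.823 to 28.5% ± 17.9 and slmb from 91.5% ± 1.26 to 76.3% ± 0.409. app also moved toward the distal site in PCF11_KD (58.1% ± 0.642) and suf_KD (65.9% ± 2.37), with 43.8% and 26.1% of all genes. The median change in log2 odds of the 4 genes was -2.07 in cbc_KD, beside -1.76 over all genes. Only in cbc_KD was it below the median of all genes. In every other knockdown it was above, for example 0.75 beside -0.84 in PCF11_KD and 0.70 beside -0.46 in PABP2_KD. Calls toward the proximal site were made for 2 of the 4 in CstF64_KD and CstF50_KD and for 1 in suf_KD and PABP2_KD, beside 21.1%, 33.9%, 11.6% and 21.7% of all genes. The totals of pan, with 41.0 counts per library on average, rose in 5 knockdowns, by 1.01 to 1.96 on the log2 scale. Higher totals were called in 18.1% to 32.6% of all genes there. Those of slmb were called higher in CstF50_KD (0.54 ± 0.19) and PABP2_KD (0.64 ± 0.19) and lower in PCF11_NIG_KD (-0.49 ± 0.19). The total of dco was called lower in PABP2_KD (-1.59 ± 0.33), and app was called in no knockdown. Lower totals were called in 22.9% of all genes in PCF11_NIG_KD and 29.5% in PABP2_KD.

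The genes with the most similar pattern of proximal shares were found by Pearson's r over the 9 group means, among 523 gene entries. All points come from the same libraries and share the same controls, so r is given as a description. For Dl these were RasGAP1 (r = 0.846), chrb (0.839) and Fs(2)Ket (0.816). RasGAP1 had only 31.4 counts per library on average, and its share was 39.4% in control and 0.0% in PCF11_NIG_KD. For Ephrin they were heph (0.938), lid (0.865) and flfl (0.858). The share of heph, which encodes a polypyrimidine tract binding protein, was lowest in control at 54.6% and highest in PCF11_NIG_KD at 95%. For dsh they were CG42797 (0.985), sra (0.983) and Vha68-1 (0.976), each with its lowest share in cbc_KD, at 61.3%, 51.3% and 26.4%.

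The authors' deposited table gives a score, PolyAIndex, that is positive where distal use is higher in the knockdown, and an adjusted p from a beta-binomial test. For Dl the authors' deposited table has a positive score in all 8 knockdowns, from 0.12 in suf_KD, where it used 3 sites, to 3.82 in PCF11_NIG_KD. For Ephrin the authors' deposited table has a negative score in all 8, from -0.09 in suf_KD to -1.17 in PABP2_KD. In dsh the authors' deposited table lists scores from -0.03 in CstF50_KD to 0.65 in cbc_KD. The adjusted p in the authors' deposited table was under 0.05 for Dl in 8, Ephrin in 6 and dsh in 4 knockdowns. Ephrin in CstF64_KD and dsh in PCF11_KD and PCF11_NIG_KD passed in the authors' deposited table and not in the fit used here.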

How the data were processed

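Per the labels' protocols, a Lexogen QuantSeq forward kit turned column-purified RNA of frozen testes into libraries that read the 3′ ends of polyadenylated RNA. Per the submitters' processing notes, the tools were SAMtools and Bowtie and the builds BDGP6 and dm6. Per the run logs, the authors counted reads with PolyA-miner, unstranded and without molecular identifiers, in blocks of 30 nt at the ends of their own list of 1098 sites. The list's origin is not given in the sources used here. The deposited tables hold raw counts per site. The authors' result tables hold a score (PolyAIndex) and adjusted p-values of a beta-binomial test.

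The 8 deposited count tables share sites and control columns and were joined. For each gene entry the 2 sites with most counts were ordered along the strand as proximal and distal. The members, and the lists of pathway genes and markers, were chosen with earlier results of these data known. Named are the members, the 3 genes with the highest r for each, and every measured pathway gene of a list with at most 8. Positions were set against the Ensembl annotation of BDGP6, in which 503 of the 522 symbols were found by name.

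Usage was fitted in edgeR 4.0.16 (R 4.3.3, quasi-likelihood, 2-sided) with a term per library, on the 525 entries that averaged 10 counts per library or more, all 18 libraries in 1 fit (common dispersion 0.0316). Totals were fitted with TMM factors (dispersion 0.0241). Adjustment followed Benjamini and Hochberg, comparison by comparison, at 0.05. CPM used the TMM library sizes of these tables, in which totals per library of 342763 to 819286 counts limit the precision of shares as the intervals show. The fits were first tested on simulated counts. Nothing says that duplicates came from separate crosses, so SDs and p values may measure technical spread. Alternatives were leaving out each library, fitting 2 groups alone, the replicate number as a block, no count filter, DESeq2 1.42.0, its size factors, library totals, all listed sites as denominator and pooled counts. No sequences are shown.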

Additional observations from a re-analysis of the deposited data

Results flagged for a closer look

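The direct contrast of the 2 PCF11 knockdowns called 2 of the genes. Its differences take no control library, but the spread behind the SEs and calls came from all 18 libraries. The genes were chosen with results of these groups in view, so the calls describe them and are not independent support. In PCF11_NIG_KD against PCF11_KD the log2 odds of proximal use of Dl differed by -3.74 ± 0.58 (SE), and those of Ephrin by 3.18 ± 0.34, both called by edgeR at an adjusted p under 0.05, where 3.43% of all genes were called toward the distal and 19.2% toward the proximal site. The shares behind them were 5.55% against 44.9% for Dl and 89.3% against 47.7% for Ephrin. The constructs are named NIG and VDRC, no knockdown strength is given, and the level of PCF11 was not measured in these tables.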

How the results depend on the processing

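Of 24 usage results (3 genes in 8 knockdowns), 21 kept their side of the threshold under all 22 alternatives, and none reversed after being called. The 3 others gained a call, as given above. Of 24 totals, 16 kept their side under all 24 alternatives, and of 18 differences between knockdowns 14 did under 21. Usage calls for the 3 genes numbered 15 of 24, with 15 to 17 when single libraries were left out. Calls over all genes, 525 tested in each of 8 knockdowns in the main fit, summed to 2006, with 1583 to 2237. Totals calls numbered 17 of 24, with 12 to 18, and over all genes, again 525 in each knockdown, 2021, with 1506 to 2329. DESeq2 gave 15 and 1926 calls for usage and 15 and 1893 for totals. Fits of 2 groups alone gave 15 and 1894 usage calls. For PABP2_KD such a fit called 167 genes, where the main fit called 196 toward the distal and 114 toward the proximal site. Such fits also called fewer genes in cbc_KD, CstF50_KD and CPSF6_KD, and more in PCF11_KD, PCF11_NIG_KD, CstF64_KD and suf_KD. The usage percents of all genes given above for PABP2_KD thus hold for the fit over all 18 libraries. Whether replicate numbers pair the samples was not settled. Deviations of same-numbered libraries correlated at -0.385 to 0.307 for usage and -0.507 to 0.434 for totals. Of 36 pairs of groups, 10 and 14 were over 0.1. Between cbc_KD, CstF50_KD, suf_KD and CPSF6_KD all were over 0.1 in both measures. For totals, PABP2_KD correlated with these groups at -0.507 to -0.192. With the replicate block there were 16 and 2053 usage calls and 17 and 2061 totals calls, and the added call was dsh in PCF11_KD (-1.07). Library totals in place of TMM factors moved the median log2 total of all genes by 0.33 in cbc_KD, 0.12 in PABP2_KD and 0.11 in suf_KD. With all listed sites as denominator the Dl share in suf_KD differed from control by -30.8 points, in place of -29.5. The cause of these shifts was not tested. Depth limits Dl most, with 60 to 561 counts per library at both sites.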
